A study of Homo sapiens with 18 samples.

Results

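The 37 genes described here encode aminoacyl-tRNA synthetases, and they were taken from the 58735 genes of a count table made from RPMI-8402, a human T-cell acute lymphoblastic leukemia (T-ALL) line. They are the protein-coding genes whose symbol is one letter followed by ARS, alone or with the number 1 or 2, together with EPRS1, FARSA and FARSB, and all had a mean count of at least 10. Of the 37, 18 encode cytosolic enzymes, 17 encode mitochondrial enzymes, and GARS1 and KARS1 supply both compartments from a single gene. All 37 passed the filter on low counts, with mean counts per library from 256 for MARS2 to 21771 for IARS1.

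Aminoacyl-tRNA synthetases join each amino acid to its tRNA and so supply the ribosome with charged tRNA. In human cells the cytosol and the mitochondrion mostly use separate enzymes from separate nuclear genes, and several cytosolic enzymes are held in a multi-synthetase complex by scaffold proteins. Uncharged tRNA activates the kinase GCN2, which raises translation of the transcription factor ATF4, and many cytosolic synthetase genes are known ATF4 targets, whereas MYC, a direct NOTCH1 target in T-ALL, is known for promoting genes of protein synthesis.

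The genotypes were cells with a non-targeting control (NT, wild type in the labels) and cells in which PIK3R1, encoding the p85 alpha regulatory subunit of PI3 kinase, was knocked out (KO). Treatment lasted 24 h and was DMSO as the vehicle, CB-103, which blocks assembly of the transcription complex of NOTCH, or the gamma-secretase inhibitor LY3039278 (GSI), which blocks the protease that releases active NOTCH. The 6 groups held 3 libraries each, from polyadenylated RNA. The sources used here give neither doses nor whether the knockout cells were a clone or a pool. Because the labels do not say that replicates were separate cultures, the p-values measure only the spread between these libraries. The comparisons address how PIK3R1 loss alters the response to NOTCH inhibition.

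Library totals ran from 30416183 to 43558387 estimated reads, and replicates of a group correlated at 0.985 to 0.991 in log2 CPM (the read count as a share of the library, scaled by TMM). With DMSO, PIK3R1 lay at 44.3, 45.5 and 42.5 CPM in NT and at 23.1, 21.4 and 23.2 CPM in KO libraries. The groups did not overlap, and PIK3R1 RNA was reduced rather than absent. MYC fell with either inhibitor in both genotypes, with log2 fold changes of -2.20 (CB-103) and -1.96 (GSI) in NT cells. All 9 T-cell and T-ALL markers passed the filter, with a summed level of 1898 CPM (NT DMSO), 999 CPM (NT CB-103) and 1389.97 CPM (NT GSI) and, in KO cells, 1581 CPM (DMSO), 1086 CPM (CB-103) and 1372 CPM (GSI). The summed level of 5 B-cell markers was 1.37 to 4.63 CPM over group means and the 4 erythroid markers were too low to test. The summed level of 6 myeloid markers was 5.44 CPM (NT DMSO), 15.5 CPM (NT CB-103), 7.66 CPM (NT GSI), 4.91 CPM (KO DMSO), 35.7 CPM (KO CB-103) and 9.56 CPM (KO GSI). It was mostly CD68 (mean count 408 per library). LYZ (35.1) and ITGAM (17.4) also passed the filter, and CSF1R, MPO and CD14 were too low to test. The summed level of 6 markers of adherent cells was 267 CPM (NT DMSO), 80.7 CPM (NT CB-103), 272 CPM (NT GSI), 232 CPM (KO DMSO), 121 CPM (KO CB-103) and 254 CPM (KO GSI). It was mostly PECAM1 (mean count 6949 per library), an adhesion receptor that blood cells also carry. COL1A1 (412) and KRT8 (10.3) also passed the filter, and COL1A2, KRT18 and EPCAM were too low to test. The part of the T-cell, myeloid and adherent-cell markers in the results below was not tested. Transcripts of the mitochondrial genome held 1.90% to 5.51% of reads in NT and 1.69% to 2.69% in KO libraries, and the part of this in differences between genotypes was not tested. Against replicates 2 and 3 over all groups, replicate 1 libraries were higher for 10 of the 37 genes, by 0.07 to 0.26 on the log2 scale, beside 14.3% of all genes called in either direction. CPM are shares of a library, so total RNA per cell was not measured, and a change in the cells present cannot be told apart from a change in RNA per cell.

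The cytosolic enzymes were the more abundant class. In NT DMSO cells, the length-corrected level in TPM (transcript copies as a length-corrected share) had a median of 125.6 over the 20 cytosolic or dual genes, with the highest at 331.4. The 17 mitochondrial genes had a median of 19.9 TPM, from 7.13 for MARS2 to 110.1 for IARS2. QARS1 stood highest at 331 ± 6.6 TPM (SD, n = 3), followed by IARS1 at 219 ± 1.2 TPM, MARS1 at 213 ± 5.4 TPM and GARS1 at 196 ± 15 TPM. The IARS1, MARS1 and GARS1 levels lay close together, and those of MARS1 and GARS1 did not differ beyond their spread. The rank of QARS1 rests in part on a short retained-intron transcript, which held 38.0% of its TPM.

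Promoter sequence was available for 30 of the 37 genes, as the 300-base windows from 250 bases before to 50 bases after a transcription start in the RefSeq table for GRCh38.p14. The motif searched was TGATGNAA on either strand, the core of the composite element bound by ATF4 with a C/EBP partner. It was found in 8 of the 30 member genes (26.7%), beside 4.46% of all 27305 genes and 3.62% of all 35116 windows in the table. Of the 16 cytosolic or dual genes with a window 7 held it (43.8%), and of the 14 mitochondrial genes 1 held it (YARS2, 7.14%). The stricter TGATGCAA was in 6 of the 16, all of the 7 but GARS1. A match describes the letters in the window and does not show a bound site. The 7 cytosolic or dual stretches are printed because these genes moved together under both inhibitors, and YARS2 for contrast. Each runs 5' to 3' along the gene's strand, with the motif or its reverse complement in capitals.
AARS1 (chr16:70289675-70289704, minus strand): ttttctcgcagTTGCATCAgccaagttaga
CARS1 (chr11:3057407-3057436, minus strand): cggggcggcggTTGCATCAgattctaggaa
GARS1 (chr7:30594834-30594863, plus strand): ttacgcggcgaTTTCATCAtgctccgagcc
IARS1 (chr9:92293692-92293721, minus strand): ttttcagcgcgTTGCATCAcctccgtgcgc
MARS1 (chr12:57488053-57488082, plus strand): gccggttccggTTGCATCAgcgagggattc
NARS1 (chr18:57621804-57621833, minus strand): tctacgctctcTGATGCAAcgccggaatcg
TARS1 (chr5:33440956-33440985, plus strand): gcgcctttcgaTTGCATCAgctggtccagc
YARS2 (chr12:32756076-32756105, minus strand): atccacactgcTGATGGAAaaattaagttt
Counted from the RefSeq start, the motif began at -2 in CARS1, -4 in MARS1, 3 in TARS1, -13 in IARS1, 15 in NARS1 and -33 in GARS1, but at -187 in AARS1 and -197 in YARS2. The E-box CACGTG, a palindrome bound by MYC-MAX and related factors, was in 4 of the 30 genes (CARS2, EARS2, IARS1 and MARS2, 13.3%), beside 8.77% of all genes in the table.

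To ask how the charging enzymes respond to blocking the NOTCH transcription complex, CB-103 was compared with DMSO. In NT cells, CB-103 raised a large share of the cytosolic synthetases and lowered most of the mitochondrial ones. WARS1 rose 5.65-fold, AARS1 2.33-fold and IARS1 1.94-fold, whereas MARS2 fell to a level 3.20-fold below DMSO and VARS1 to 2.12-fold below. Changes were called at an adjusted p under 0.05 in edgeR's quasi-likelihood test, with Benjamini-Hochberg adjustment over the 17346 genes tested. In all, 14 of 37 members were higher (37.8%, beside 29.5% of all genes), 16 were lower (43.2%, beside 28.7%) and 7 did not pass. Called members made up 81.1% of the list and 58.2% of all genes. Among the 20 cytosolic or dual genes 11 rose and 6 fell, with a median log2 fold change of 0.29, and among the 17 mitochondrial genes 3 rose and 10 fell, with a median of -0.32. The median over all genes was 0.04.

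WARS1, the tryptophanyl-tRNA synthetase, also known as an interferon-inducible gene (chr14:100333788-100376805), had the largest rise of the list. Its NT level was 63.2, 63.8 and 62.7 CPM with DMSO and 366, 345 and 361 CPM with CB-103, a log2 fold change of 2.50 ± 0.054 (adjusted p = 4.3e-16). In KO cells it went from 59.8, 60.0 and 62.2 CPM to 262, 241 and 267 CPM, a log2 fold change of 2.08 ± 0.053 (adjusted p = 5.9e-15). All 6 CB-103 libraries lay far above all 6 DMSO libraries, and the KO CB-103 libraries lay below the NT CB-103 libraries.

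AARS1, the alanyl-tRNA synthetase (chr16:70252295-70289543), was at 265, 255 and 251.3 CPM in NT DMSO and 654, 580.2 and 566 CPM in NT CB-103. In the KO groups the gene stood at 257, 237 and 246 CPM and 576, 493 and 519 CPM. Replicate 1 was the highest library of each CB-103 group, and no DMSO library came near these levels. The log2 fold change was 1.22 ± 0.067 (adjusted p = 3.5e-11) in NT cells and 1.10 ± 0.067 (adjusted p = 2.7e-10) in KO cells.

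IARS1, the isoleucyl enzyme of the multi-synthetase complex (chr9:92210207-92293756), stood at 543, 528 and 536 CPM in NT DMSO and 1029.6, 1072 and 1019 CPM in NT CB-103. In KO cells it moved from 476, 491 and 512 CPM to 929, 896 and 967 CPM. The CB-103 and DMSO ranges were well apart in both genotypes, with log2 fold changes of 0.96 ± 0.044 and 0.92 ± 0.044 (adjusted p = 3.0e-12 and 1.1e-11). CARS1, the cysteinyl enzyme (chr11:3000922-3057613), rose from 78.0, 71.6 and 75.4 CPM to 135, 130.4 and 129 CPM in NT cells. The KO rise was from 72.1, 76.4 and 77.5 CPM to 123, 126 and 129.7 CPM. Its log2 fold changes of 0.81 ± 0.045 and 0.74 ± 0.045 were close to each other (adjusted p = 4.2e-11 and 2.4e-10), and the groups did not overlap.

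**Figure D1:**
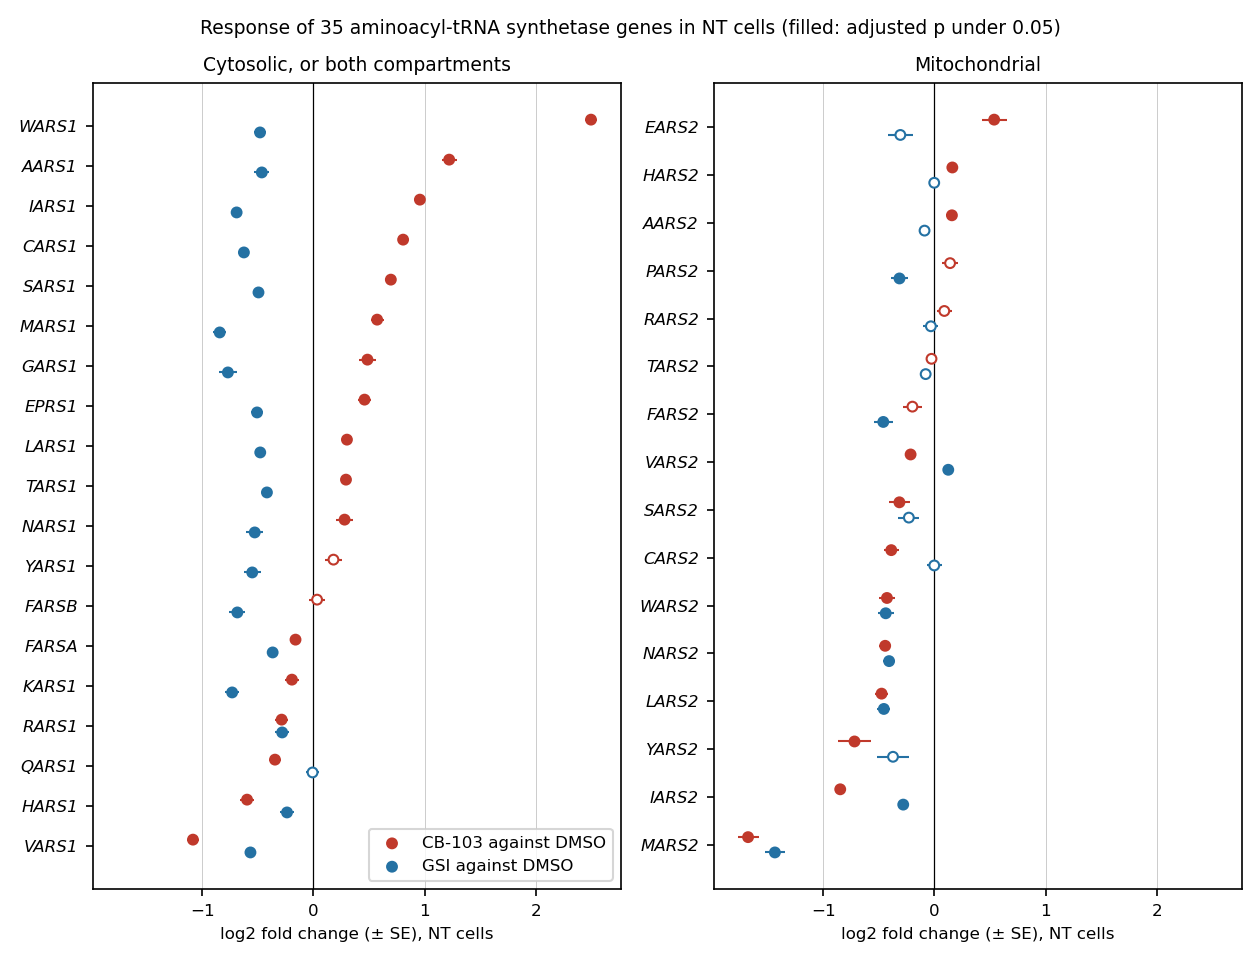
Log2 fold change against DMSO (x axis, with SE bars) for 35 of the genes (y axis) in NT cells, CB-103 in red and GSI in blue, filled where the adjusted p is under 0.05. The cytosolic or dual genes (left) spread from -1.09 to 2.50 with CB-103, whereas all of those drawn but QARS1 fell with GSI. The mitochondrial genes (right) were mostly lower with CB-103, MARS2 most (-1.68).

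The other cytosolic genes that rose in NT cells were SARS1 (0.70 on the log2 scale), MARS1 (0.57), GARS1 (0.49), EPRS1 (0.46), LARS1 (0.30), TARS1 (0.29) and NARS1 (0.28). Each also passed in KO cells, with TARS1 (0.14, adjusted p = 0.014) and LARS1 (0.14, adjusted p = 0.019) the smallest. Those 2 calls in KO cells were lost on leaving out a single library, TARS1 on omitting DMSO replicate 2 or CB-103 replicates 1 or 3 of KO cells (adjusted p up to 0.11 over all alternatives) and LARS1 on omitting DMSO replicates 1 or 3 or CB-103 replicate 3 of KO cells (up to 0.10). MARS1, the cytosolic methionyl enzyme (chr12:57475445-57517569), was at 393, 366 and 388 CPM in NT DMSO and 599.8, 571 and 535 CPM in NT CB-103. KO cells gave 357, 325 and 324 CPM and 516, 509 and 506 CPM. Every CB-103 library was above every DMSO library.

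Cytosolic genes that fell with CB-103 in NT cells were VARS1, HARS1, QARS1, RARS1, KARS1 and FARSA, for valine, histidine, glutamine, arginine, lysine and the alpha subunit for phenylalanine. VARS1, known to associate with elongation factor eEF1 (chr6:31777518-31795953), fell from 129.6, 145 and 134 CPM to 66.0, 63.1 and 63.7 CPM in NT cells. The KO fall was from 141, 135 and 132 CPM to 69.7, 64.6 and 75.2 CPM. The 4 groups separated by treatment and not by genotype, with log2 fold changes of -1.09 ± 0.054 (adjusted p = 9.6e-12) and -0.96 ± 0.054 (adjusted p = 9.3e-11). HARS1 had log2 fold changes of -0.60 in NT and -0.31 in KO cells, and FARSA had -0.16 and -0.22, all called. RARS1 fell in NT cells (-0.29), and its value in KO cells did not pass (-0.069, adjusted p = 0.38). YARS1 and FARSB did not pass in NT cells, with log2 fold changes of 0.18 and 0.032.

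Among the mitochondrial enzymes, MARS2, the methionyl enzyme (chr2:197705369-197708387), fell furthest with CB-103. It was at 12.9, 11.9 and 13.0 CPM in NT DMSO and 3.93, 4.27 and 3.64 CPM in NT CB-103. Its levels in KO cells were 11.0, 11.0 and 11.9 CPM and 3.48, 3.08 and 3.62 CPM. No CB-103 library reached a DMSO library in either genotype, and the log2 fold change was -1.68 ± 0.094 (adjusted p = 4.6e-11) in NT cells and -1.74 ± 0.10 (adjusted p = 6.8e-11) in KO cells.

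IARS2, the mitochondrial isoleucyl enzyme (chr1:220094102-220148041), fell from 264, 266 and 261 CPM to 156, 141 and 142 CPM in NT cells, a log2 fold change of -0.85 ± 0.048 (adjusted p = 5.2e-11). In KO cells the fall was from 289.9, 279 and 290.5 CPM to 208, 190.2 and 207 CPM, a log2 fold change of -0.50 ± 0.048 (adjusted p = 8.6e-08). The KO CB-103 libraries stayed above all NT CB-103 libraries and below all DMSO libraries. YARS2, the mitochondrial tyrosyl enzyme, was at 30.4, 29.3 and 22.7 CPM in NT DMSO and 19.4, 16.9 and 13.6 CPM in NT CB-103, with a log2 fold change of -0.72 ± 0.15 (adjusted p = 0.00042). Its KO levels were 29.5, 23.5 and 28.5 CPM and 20.3, 13.9 and 17.2 CPM, with a log2 fold change of -0.66 ± 0.15 (adjusted p = 0.0011). The DMSO and CB-103 ranges did not overlap in either genotype, but the lowest DMSO library of NT cells was only a little above the highest CB-103 library.

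CARS2, the mitochondrial cysteinyl enzyme, also known as a cysteine persulfide synthase, was at 38.6, 38.0 and 39.0 CPM in NT DMSO and 27.0, 28.2 and 33.1 CPM in NT CB-103. The matching KO values were 36.6, 39.6 and 38.1 CPM and 23.9, 27.2 and 25.3 CPM. Both treated groups lay below their controls, with log2 fold changes of -0.39 ± 0.067 and -0.58 ± 0.067 (adjusted p = 6.6e-05 and 1.1e-06). LARS2, NARS2 and SARS2 were also lower in both genotypes, with NT log2 fold changes of -0.48, -0.44 and -0.32. For SARS2 the KO fall did not pass on leaving out KO DMSO replicate 1 or CB-103 replicates 1 or 2 of KO cells (adjusted p up to 0.20 over all alternatives). WARS2 (-0.43) and VARS2 (-0.22) were lower in NT cells. The genes that went the other way in NT cells were EARS2 (0.54), HARS2 (0.16) and AARS2 (0.16). The HARS2 call was lost without NT DMSO replicate 1 and the AARS2 call without NT DMSO replicate 3 or NT CB-103 replicate 2, with adjusted p up to 0.14 and 0.097 over all alternatives.

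**Figure D2:**
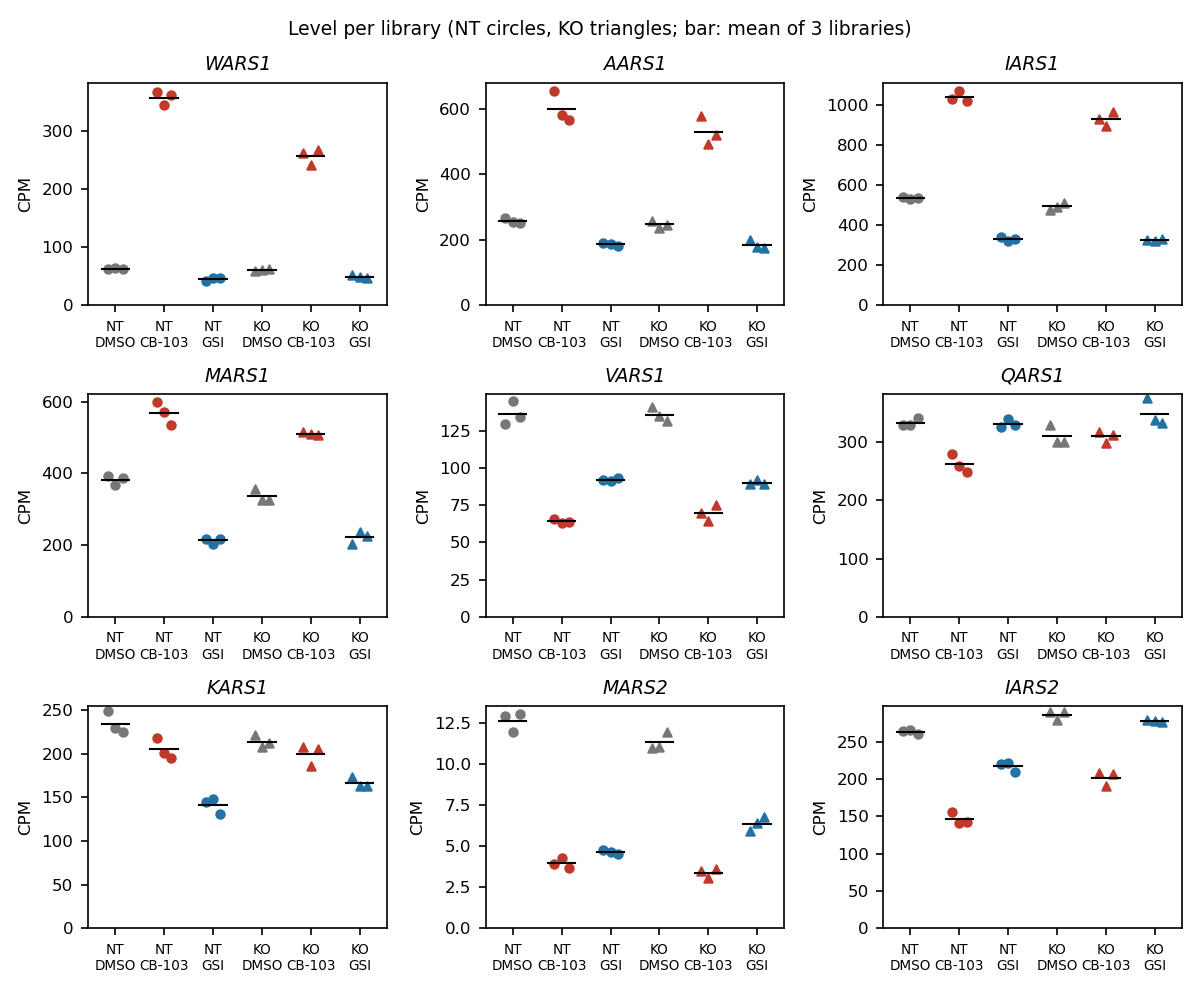
CPM (y axis, from 0) in each of the 18 libraries for 9 genes, by group (x axis), NT as circles and KO as triangles, with a bar at the mean of 3 libraries. WARS1, AARS1, IARS1 and MARS1 are high with CB-103 and low with GSI, VARS1 and MARS2 are low with both, and IARS2 is lowest with CB-103 in NT cells.

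In KO cells the CB-103 response was of a similar kind, with 15 of 37 members higher (40.5%, beside 24.9% of all genes) and 11 lower (29.7%, beside 23.7%), and 48.6% of all genes called. Across the 37 genes, the log2 fold changes in NT and KO cells correlated at r = 0.97 (Spearman's rho 0.95). This is a correlation across genes measured in the same libraries, and genes are not independent replicates. Of the 37, 13 were higher with CB-103 in both genotypes (35.1%, beside 20.8% of all genes) and 11 were lower in both (29.7%, beside 20.5%). The summed level of the 20 cytosolic or dual genes, which was not tested, was 39.1% higher in NT cells, at 4625 ± 116.8 CPM with DMSO and 6434 ± 260 CPM with CB-103 (SD, n = 3), and 39.2% higher in KO cells, going from 4453 ± 93.4 CPM to 6199 ± 299 CPM. That of the 17 mitochondrial genes went from 831 ± 8.63 CPM to 637 ± 18.9 CPM in NT cells and from 851 ± 6.66 CPM to 714 ± 27.0 CPM in KO cells.

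To set enzymes for the same amino acid side by side, 14 cytosolic genes were paired with their mitochondrial counterparts. With CB-103, the log2 ratio of the cytosolic to the mitochondrial gene was higher than with DMSO in 11 of the 14 pairs in each genotype, with a median change of 0.84 in NT and 0.68 in KO cells. The change was 2.93 for WARS1 over WARS2, 2.25 for MARS1 over MARS2 and 1.81 for IARS1 over IARS2 in NT cells. It went the other way for VARS1 over VARS2 (-0.87), HARS1 over HARS2 (-0.76) and RARS1 over RARS2 (-0.38). HARS1 and HARS2 lie head to head on chromosome 5 and overlap by 437 bases, and their RNAs moved in opposite directions in NT cells. No test of the ratios was made.

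**Figure D3:**
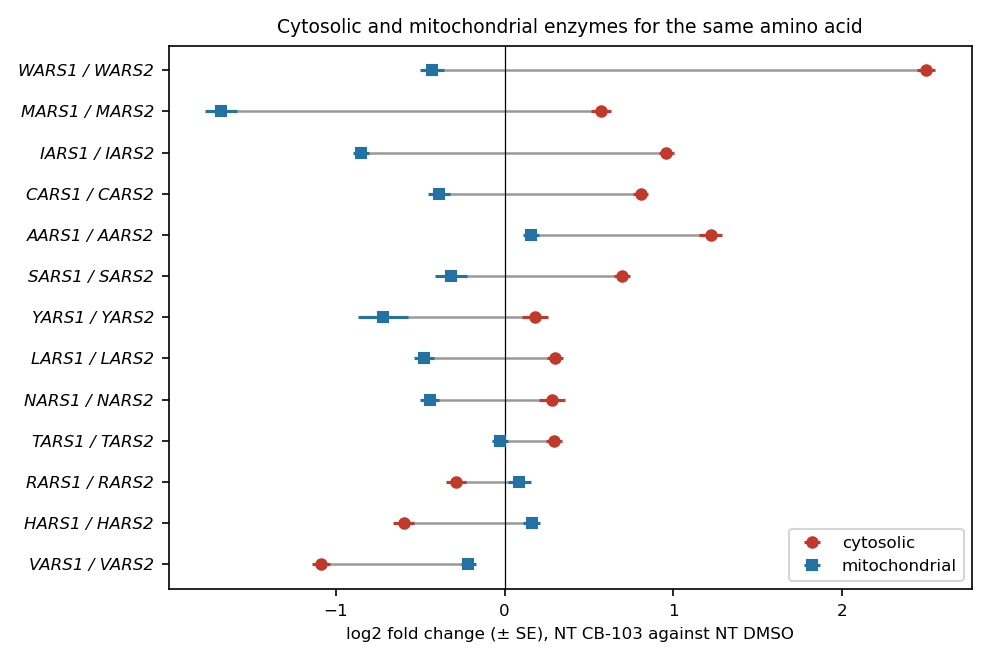
Log2 fold change of CB-103 against DMSO in NT cells (x axis, with SE) for 13 of the 14 pairs of cytosolic (red circles) and mitochondrial (blue squares) enzymes for the same amino acid (y axis). The cytosolic gene lies to the right of its partner in all pairs drawn except the HARS, RARS and VARS pairs.

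The gamma-secretase inhibitor lowered nearly all cytosolic synthetases in NT cells and most of them in KO cells. In NT cells, 26 of 37 members were lower (70.3%, beside 15% of all genes), 1 was higher (2.7%, beside 9.67%) and 10 did not pass, and 24.7% of all genes were called in either direction. Among the 20 cytosolic or dual genes 19 fell, with a median log2 fold change of -0.50, and the exception was QARS1 at -0.0084 ± 0.056 (adjusted p = 0.94). Of the 17 mitochondrial genes 7 fell, with a median of -0.28. The median over all genes was 0.01. Summed over genes, the cytosolic or dual class went to 3227 ± 61.4 CPM in NT cells, a change of -30.2%, and the mitochondrial class to 713 ± 8.17 CPM, a change of -14.2%.

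MARS2 fell with GSI as well, to NT values of 4.78, 4.66 and 4.55 CPM and KO values of 5.90, 6.39 and 6.77 CPM, against the DMSO levels given above. The KO GSI libraries all lay above the NT GSI libraries, and both groups lay well below DMSO, with log2 fold changes of -1.44 ± 0.093 (adjusted p = 3.6e-09) and -0.83 ± 0.091 (adjusted p = 4.1e-06). MARS1 fell to NT values of 218, 204 and 217 CPM and KO values of 203, 237 and 227 CPM. These 6 libraries overlapped each other and lay below every DMSO library, with log2 fold changes of -0.84 ± 0.060 (adjusted p = 1.2e-08) and -0.59 ± 0.060 (adjusted p = 1.5e-06).

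GARS1, the glycyl enzyme of both compartments (chr7:30594681-30634033), was at 383, 345 and 329 CPM in NT DMSO, 539.9, 473 and 467 CPM in NT CB-103 and 221, 203 and 195 CPM in NT GSI. In KO cells the values were 338, 309 and 323 CPM, 542, 461 and 499 CPM and 235, 206 and 209 CPM in the same order. Replicate 1 was the highest of each group, and the 3 treatments did not overlap within either genotype. The GSI change was -0.77 ± 0.078 (adjusted p = 1.0e-06) in NT and -0.58 ± 0.078 (adjusted p = 4.4e-05) in KO cells, and the CB-103 change 0.49 ± 0.077 (adjusted p = 3.0e-05) and 0.63 ± 0.078 (adjusted p = 2.2e-06).

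KARS1, the lysyl enzyme of both compartments and a member of the complex (chr16:75627474-75648643), fell with both inhibitors in NT cells. It was at 248.8, 229.9 and 225 CPM in NT DMSO, 218, 201 and 196 CPM in NT CB-103 and 145, 148 and 131 CPM in NT GSI. In the order DMSO, CB-103 and GSI, the KO levels were 221, 208 and 212 CPM, 208, 186 and 206 CPM and 173, 163 and 163 CPM. The GSI groups lay below the others of their genotype, with log2 fold changes from DMSO of -0.73 ± 0.061 (adjusted p = 8.8e-08) in NT and -0.36 ± 0.060 (adjusted p = 0.00036) in KO cells. The smaller CB-103 change in NT cells (-0.19, adjusted p = 0.010) was lost without NT DMSO replicate 1 or NT CB-103 replicate 3 (adjusted p up to 0.062). Its value in KO cells did not pass (-0.10, adjusted p = 0.21).

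With GSI, IARS1 stood at 343, 319.7 and 332 CPM in NT and 327, 322 and 333 CPM in KO cells, below every DMSO library, with log2 fold changes of -0.69 ± 0.044 and -0.59 ± 0.044 (adjusted p = 2.8e-09 and 3.1e-08). VARS1 stood at 91.8, 91.0 and 93.4 CPM and 89.0, 91.7 and 89.2 CPM, between its DMSO and CB-103 levels in both genotypes. The remaining cytosolic genes but QARS1 fell, with log2 fold changes from -0.69 (FARSB) to -0.24 (HARS1) in NT cells, among them CARS1 (-0.63), YARS1 (-0.55), AARS1 (-0.47) and WARS1 (-0.48). The HARS1 call was lost without NT DMSO replicate 1 (adjusted p = 0.052).

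The single higher member in NT cells was VARS2, the mitochondrial valyl enzyme, at 42.8, 42.3 and 43.1 CPM with DMSO and 46.4, 46.8 and 46.5 CPM with GSI. These ranges were narrow and apart, but the log2 fold change was only 0.12 ± 0.043 (adjusted p = 0.046). The call was lost on leaving out any 1 of the 6 libraries, namely NT DMSO replicates 1, 2 or 3 and NT GSI replicates 1, 2 or 3, with adjusted p up to 0.39 over all alternatives. It was also lost under every other alternative except the replicate number as a block. In KO cells, 20 of 37 members were lower with GSI (54.1%, beside 9.58% of all genes) and 2 were higher (5.4%, beside 9.69%), with 19.3% of all genes called. The higher ones were RARS2, mitochondrial arginyl, and QARS1. RARS2 was at 19.1, 17.4 and 16.7 CPM in KO DMSO and 19.5, 19.8 and 22.2 CPM in KO GSI, and QARS1 at 329.9, 300.1 and 300.5 CPM and 376, 338 and 333 CPM. Neither pair of ranges overlapped, and the log2 fold changes were 0.21 ± 0.068 and 0.17 ± 0.056 (adjusted p = 0.040 and 0.041). Both calls were lost without KO DMSO replicates 2 or 3 or KO GSI replicate 2, RARS2 also without KO GSI replicate 3 and QARS1 also without KO GSI replicate 1 (adjusted p up to 0.23 and 0.21 over all alternatives). Both were also lost with no filter on low counts and in a fit on the compared groups alone.

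The CB-103 and GSI responses of a genotype share its DMSO libraries, so they are set side by side only. In NT cells, 11 of the 37 genes were higher with CB-103 and lower with GSI (29.7%, beside 3.23% of all genes), namely AARS1, CARS1, EPRS1, GARS1, IARS1, LARS1, MARS1, NARS1, SARS1, TARS1 and WARS1, all of them cytosolic or dual. The same 11 were among the 13 with that pattern in KO cells (35.1%, beside 1.83% of all genes), the others being EARS2 and FARSB. The FARSB rise with CB-103 did not pass in KO cells on leaving out KO DMSO replicates 2 or 3, or CB-103 replicates 1 or 3 (adjusted p up to 0.21 over all alternatives). Lower with both inhibitors in NT cells (10 genes or 27.0%, beside 8.6% of all genes) were FARSA, HARS1, IARS2, KARS1, LARS2, MARS2, NARS2, RARS1, VARS1 and WARS2. RARS2 and TARS2 passed with neither inhibitor in NT cells.

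Compared directly, CB-103 was above GSI for 21 of 37 members in NT cells (56.8%, beside 29.2% of all genes) and below for 8 (21.6%, beside 27.1%), with 56.3% of all genes called. In KO cells it was above for 18 (48.6%, beside 24.7%) and below for 8 (21.6%, beside 23.1%), with 47.9% of all genes called. The size of the difference between the inhibitors depends on doses that were not given in the sources used here. Among the 20 cytosolic or dual genes, 16 were higher with CB-103 than with GSI in NT cells and 14 in KO cells. WARS1 differed 7.88-fold in NT and 5.20-fold in KO cells, AARS1 3.22-fold and 2.88-fold, and IARS1 3.14-fold and 2.84-fold. CARS2, HARS1, IARS2, MARS2, QARS1 and VARS1 were lower with CB-103 than with GSI in both genotypes, IARS2 with log2 differences of -0.57 and -0.46. The QARS1 call in KO cells (-0.17, adjusted p = 0.017) was lost without KO GSI replicate 1 (adjusted p up to 0.12), and the MARS2 call in NT cells (-0.24, adjusted p = 0.041) without NT CB-103 replicates 1 or 3 or NT GSI replicates 1, 2 or 3 (up to 0.27).

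All 7 cytosolic or dual genes with TGATGNAA were higher with CB-103 and lower with GSI in both genotypes. Over all genes the shares were 3.23% (NT) and 1.83% (KO). Among the 9 cytosolic or dual genes whose window lacks it, 3 were higher with CB-103 in NT cells (EPRS1, SARS1 and WARS1) and 5 were lower (beside 29.5% and 28.7% of all genes). With GSI, 8 of these 9 fell in NT cells (beside 15%) and 6 in KO cells (beside 9.58%). All 4 without a window fell with GSI in NT cells and 3 of them in KO cells. WARS1, with the largest rise, has no match in its window, which says only that these letters are not within these 300 bases. Among the 332 tested genes of the whole table that hold the motif, 33.1% were higher and 32.5% lower with CB-103 in NT cells, beside 31.3% and 32.5% of the 11292 without it. With GSI in NT cells, 6.33% of genes with the motif were higher and 22.3% lower, beside 10.2% and 17.9% of those without. For the stricter TGATGCAA, 37.1% of the 89 tested genes with it were higher with CB-103 in NT cells, beside 31.3% of those without. With GSI 33.7% were lower, beside 17.9%. These whole-table shares include the member genes themselves. The 89 hold the 6 members with TGATGCAA, all higher with CB-103 and lower with GSI, so the shares are no independent comparison for them.

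**Figure D4:**
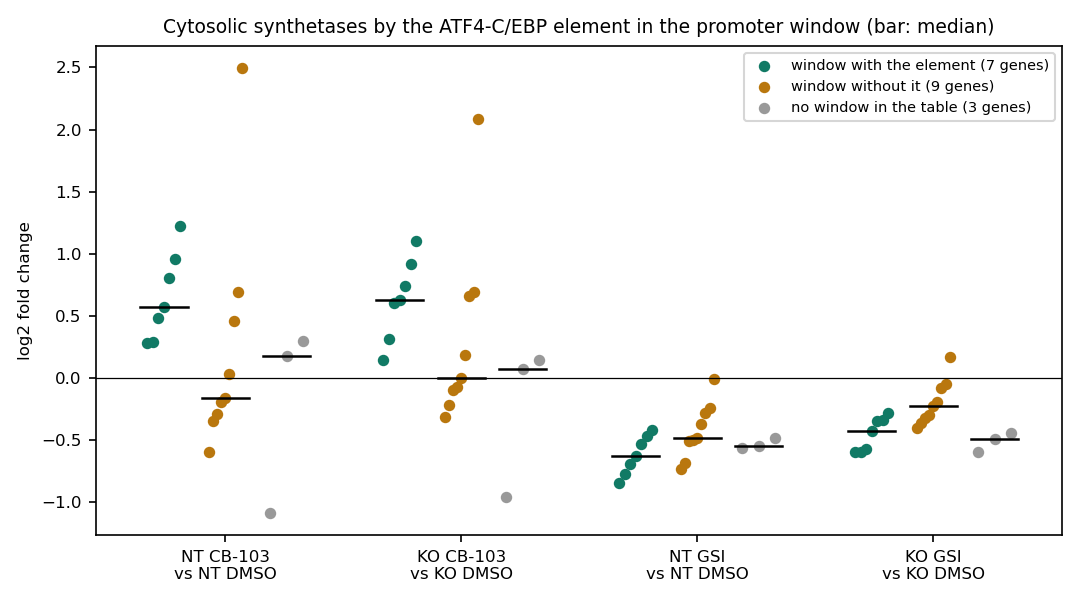
Log2 fold change (y axis) of 19 of the 20 cytosolic or dual genes in the 4 comparisons with DMSO (x axis), split by whether the 300-base promoter window holds TGATGNAA (7 genes), lacks it (9 genes) or is not in the table (3 genes drawn), with bars at medians. The genes with the motif lie above 0 with CB-103 and below 0 with GSI, and those without it spread on both sides with CB-103.

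Within the multi-synthetase complex, which holds 8 of the cytosolic or dual members, responses to CB-103 were mixed in NT cells. In NT cells IARS1, MARS1, EPRS1 and LARS1 rose (4 of 8, beside 29.5% of all genes) and QARS1, KARS1 and RARS1 fell (3 of 8, beside 28.7%), whereas 7 of the 8 fell with GSI (beside 15%). In KO cells IARS1, MARS1, EPRS1 and LARS1 rose with CB-103 (beside 24.9% of all genes) and none of the 8 passed as lower (beside 23.7%), and 5 fell and 1 rose with GSI (beside 9.58% and 9.69%). The genes of the 3 scaffold proteins of the complex rose with CB-103 and fell with GSI in NT cells. EEF1E1 changed by 1.14 ± 0.060 with CB-103 and -0.61 ± 0.061 with GSI on the log2 scale in NT cells, AIMP1 by 0.37 ± 0.062 and -0.46 ± 0.063, and AIMP2 by 0.24 ± 0.056 and -0.69 ± 0.057 (all 6 called). In KO cells AIMP2 did not pass with CB-103 (-0.037) and AIMP1 did not pass with GSI (-0.081). By catalytic fold, 5 of 9 class I and 5 of 10 class II cytosolic or dual enzymes rose with CB-103 in NT cells (beside 29.5% of all genes) and 5 of 9 and 6 of 10 in KO cells (beside 24.9%), leaving out EPRS1, which has both folds.

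EPRS1, which charges glutamate and proline tRNA with a single protein (chr1:219968601-220046658), was at 443, 437 and 408 CPM in NT DMSO, 609, 597 and 564 CPM in NT CB-103 and 292, 308 and 305 CPM in NT GSI. In the KO groups the gene stood at 469.8, 488 and 486 CPM, 809.6, 690.2 and 777 CPM and 392.2, 389 and 374 CPM. Each KO group lay above its NT counterpart without overlap. The treatments were apart within each genotype, with CB-103 changes of 0.46 ± 0.055 (adjusted p = 1.0e-06) and 0.66 ± 0.055 (adjusted p = 1.8e-08) and GSI changes of -0.51 ± 0.055 (adjusted p = 2.3e-06) and -0.32 ± 0.055 (adjusted p = 0.00045).

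QARS1, the cytosolic glutaminyl enzyme (chr3:49095932-49105135), had NT levels of 329.7, 329 and 342 CPM with DMSO, 279.5, 259 and 248 CPM with CB-103 and 326, 339 and 330.2 CPM with GSI. With CB-103 in KO cells it was at 318, 299 and 312 CPM, overlapping the KO DMSO libraries given above. The NT CB-103 libraries stood below the other NT libraries, at a log2 fold change of -0.35 ± 0.056 (adjusted p = 3.3e-05), and the KO value was -0.0014 ± 0.056 (adjusted p = 0.99).

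Mitochondria have no glutaminyl enzyme of their own and use EARS2, which charges glutamate onto the glutamine tRNA as well, followed by an amidotransferase of QRSL1, GATB and GATC. EARS2 (chr16:23522014-23557731) was at 19.9, 18.7 and 18.05 CPM in NT DMSO, 28.3, 27.9 and 25.99 CPM in NT CB-103 and 14.9, 12.02 and 18.7 CPM in NT GSI. KO cells gave 19.9, 20.0004 and 18.2 CPM, 22.6, 23.8 and 25.4 CPM and 15.5, 12.9 and 15.2 CPM. CB-103 libraries lay above DMSO libraries in both genotypes, with log2 fold changes of 0.54 ± 0.11 (adjusted p = 0.00049) and 0.31 ± 0.11 (adjusted p = 0.033), and the NT GSI libraries were widely spread and overlapped DMSO. The KO rise with CB-103 did not pass on leaving out any 1 of the 3 KO DMSO libraries (replicates 1, 2 or 3) or KO CB-103 replicates 2 or 3, and with gene sums of the deposited transcript estimates (adjusted p up to 0.56 over these). The KO GSI change (-0.41, adjusted p = 0.018) was lost without KO DMSO replicates 1 or 2 or KO GSI replicate 2 (up to 0.094). QRSL1 rose with CB-103 in NT cells (0.71 ± 0.078), whereas GATB (-0.30 ± 0.086) and GATC (-0.23 ± 0.043) fell.

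The shares of EARS2 transcripts also differed between treatments. The transcript EARS2-201 held 55.7%, 69.4% and 68.5% of the gene's TPM in the NT DMSO libraries and 30.5%, 28.3% and 36.1% in the NT CB-103 libraries. EARS2-207, another coding transcript, held 14.5%, 10.4% and 12.6% with DMSO and 25.98%, 26.8% and 28.3% with CB-103. These ranges did not overlap, and EARS2-201 went the same way in KO cells, from 65.6% ± 8.54 to 35.7% ± 13.0 (SD, n = 3). At IARS1, the transcript IARS-202 went from 23.5%, 16.5% and 18.2% to 38.0%, 30.6% and 31.0% of TPM in NT cells, again without overlap, and from 19.2% ± 4.24 to 27.9% ± 3.81 in KO cells. At KARS1, where 2 coding transcripts differ in whether the protein enters mitochondria, KARS-201 held 81.0% ± 1.58 with DMSO, 81.4% ± 0.75 with CB-103 and 84.3% ± 1.38 with GSI in NT cells. These shares are estimates from reads that transcripts of one gene have in common, and no test was made. How many other transcripts had ranges apart or overlapping was not counted, so nothing is read from the ranges above. In all, 21 of the 37 genes had more than 1 transcript above 10% of their TPM. With shares taken from estimated counts instead of TPM, the number was 15.

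To ask what PIK3R1 knockout did without an inhibitor, KO and NT cells were compared in DMSO, where 4 of 37 members differed (10.8%, beside 21.4% of all genes), 2 of them higher (beside 9.78%) and 2 lower in KO cells (beside 11.7%). NARS2, the mitochondrial asparaginyl enzyme, was lower in KO cells, at 47.1, 51.2 and 47.4 CPM against 58.9, 58.1 and 54.5 CPM in NT cells, a log2 difference of -0.23 ± 0.055 (adjusted p = 0.0048). MARS1 was also lower at a log2 difference of -0.19 ± 0.059 (adjusted p = 0.029), at the DMSO levels given above, and EPRS1 was higher by 0.17 ± 0.055 (adjusted p = 0.040). TARS2, the mitochondrial threonyl enzyme, was at 52.2, 51.6 and 53.4 CPM in NT and 59.6, 59.5 and 57.6 CPM in KO cells, higher by 0.17 ± 0.049 (adjusted p = 0.020). None of the 4 pairs of ranges overlapped. The 4 genes were picked by the test on these same libraries, so this adds nothing to the calls. The share of all genes with ranges apart was not counted. The count of called members depended on the test, with 7 called by DESeq2 (18.9%, beside 22.2% of all genes). Nothing is read from that count against the share of all genes. Only NARS2 stayed called under every alternative. Leaving out a library reduced the count to 1 (NT DMSO replicate 1) or to 2 (NT DMSO replicates 2 or 3, KO DMSO replicates 1 or 2). EPRS1 was lost without any 1 of the 6 libraries, MARS1 without NT DMSO replicates 1 or 3 or KO DMSO replicates 2 or 3, and TARS2 without NT DMSO replicates 1 or 2 or KO DMSO replicates 1 or 2 (adjusted p up to 0.18, 0.10 and 0.28 over all alternatives).

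Between genotypes under treatment, 15 of 37 members differed with CB-103 (40.5%, beside 37% of all genes), 8 higher (beside 20.4%) and 7 lower in KO cells (beside 16.5%). With GSI, 17 differed (45.9%, beside 33.8% of all genes), 15 higher (40.5%, beside 18.8%) and 2 lower in KO cells (5.4%, beside 15%). WARS1 was lower in KO than in NT cells with CB-103 (-0.48 ± 0.051, adjusted p = 1.1e-06), and IARS2 was higher (0.46 ± 0.048, adjusted p = 8.5e-07). With GSI, MARS2 (0.45), EPRS1 (0.35) and IARS2 (0.35) had the largest higher values in KO cells on the log2 scale, and CARS2 (-0.29) was the lowest.

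Whether the response itself depended on genotype was tested with an interaction term. For CB-103, 7 of 37 members passed (18.9%, beside 14.6% of all genes), 6 with a positive difference (beside 10.3%) and 1 with a negative one (beside 4.34%). WARS1 rose less in KO than in NT cells, with a log2 difference of responses of -0.42 ± 0.073 (adjusted p = 0.00097). The other 6 had a higher KO response, and WARS2, the mitochondrial tryptophanyl enzyme, had the largest difference of these at 0.41 ± 0.10 (adjusted p = 0.011). Its levels were 17.1, 17.4 and 17.3 CPM in NT DMSO and 14.1, 12.1 and 12.3 CPM in NT CB-103, but 16.8, 17.8 and 15.6 CPM and 16.2, 16.7 and 16.7 CPM in KO cells. The NT groups were apart and the KO groups overlapped.

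RARS2 was at 19.5, 17.3 and 18.1 CPM in NT DMSO and 19.8, 18.9 and 19.8 CPM in NT CB-103, which overlapped. Its levels in KO cells were 19.1, 17.4 and 16.7 CPM (the DMSO levels given above) and 25.03, 23.5 and 23.9 CPM, which did not overlap, and its interaction was 0.36 ± 0.10 (adjusted p = 0.019). IARS2 and QARS1, at the levels given above, had smaller KO falls or none, with interactions of 0.35 ± 0.067 (adjusted p = 0.0022) and 0.35 ± 0.079 (adjusted p = 0.0066), and HARS1 and VARS2 had interactions of 0.29 and 0.19. WARS1, WARS2, IARS2 and QARS1 stayed called under every alternative tried. The count of 7 fell to 4 without NT DMSO replicate 1, NT CB-103 replicate 2, KO DMSO replicates 2 or 3 or KO CB-103 replicate 1. RARS2 was lost in each of these 5 cases (adjusted p up to 0.061), HARS1 in these and without NT DMSO replicate 2, NT CB-103 replicate 3 or KO CB-103 replicate 3 (up to 0.12), and VARS2 without any 1 of the 12 libraries but KO DMSO replicate 1 (up to 0.28).

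For GSI, 6 of 37 members passed the interaction test (16.2%, beside 2.79% of all genes). All 6 differences were positive (beside 2.1% of all genes, with 0.692% negative), so each fell less in KO than in NT cells or did not fall there. MARS2 had the largest difference (0.60 ± 0.13, adjusted p = 0.029), at the levels given above, followed by KARS1 (0.37 ± 0.085, adjusted p = 0.034).

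NARS2 was at 40.0, 44.9 and 44.4 CPM in NT GSI and 44.4, 43.8 and 47.0 CPM in KO GSI, which is a smaller step from DMSO in KO cells, where the DMSO level was itself lower. Its interaction was 0.30 (adjusted p = 0.0496), and CARS1 and SARS1 had interactions of 0.28 and 0.27. These 6 calls depended on single libraries. The count was 0 without NT DMSO replicate 1, NT GSI replicate 1, KO GSI replicate 2 or KO GSI replicate 3. In these fits 53 to 114 of all genes were called. The member count was 1 without NT DMSO replicate 3 or KO GSI replicate 1. It was 2 without NT DMSO replicate 2, NT GSI replicate 3 or KO DMSO replicates 1 or 2. It was 6 without KO DMSO replicate 3 (beside 488 of 17774 genes) and 10 without NT GSI replicate 2 (beside 1505 of 17829). DESeq2 called 10 members, beside 1227 of 17346 genes, where the main fit called 484 genes. The higher member counts thus came with more calls over all genes, and nothing is read from them. Across the 37 genes the GSI log2 fold changes in NT and KO cells correlated at r = 0.83 (Spearman's rho 0.82), as a description.

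**Figure D5:**
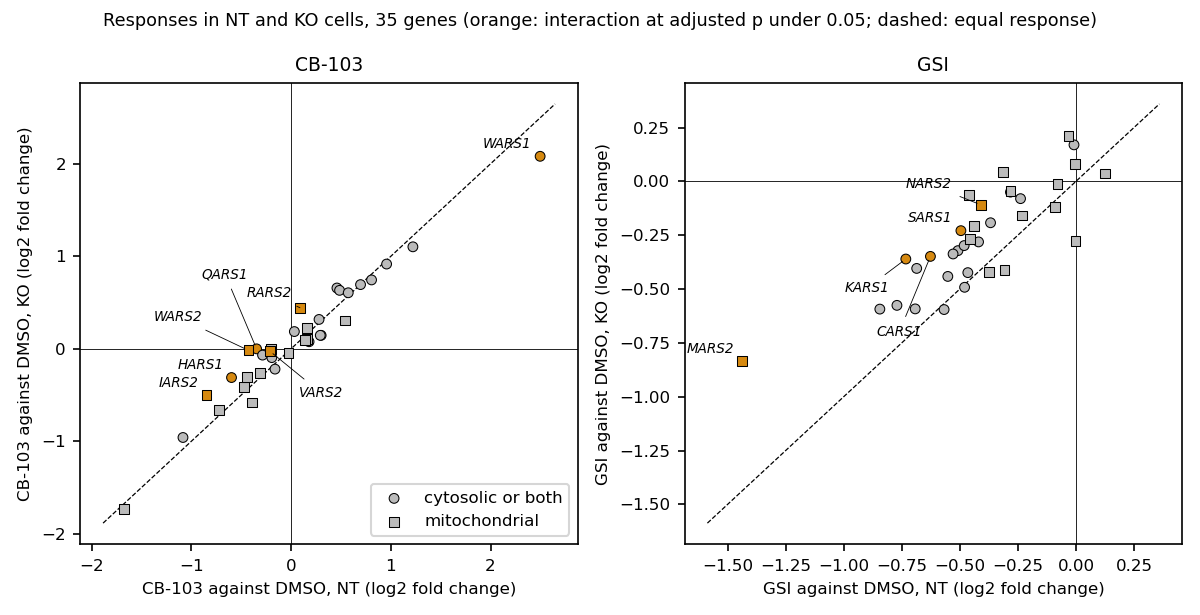
Log2 fold change against DMSO in NT cells (x axis) and KO cells (y axis) of 35 of the genes, for CB-103 (left) and GSI (right), with circles for cytosolic or dual and squares for mitochondrial genes, orange where the interaction passed. Points lie close to the dashed line of equal response with CB-103, and mostly above it with GSI, where falls were smaller in KO cells.

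Genes around tRNA charging were described from lists of known function. ATF4 itself was at 406, 426 and 412 CPM in NT DMSO, 605, 573 and 581 CPM in NT CB-103 and 265, 259 and 252 CPM in NT GSI. The KO levels were 415, 421 and 441 CPM, 864, 804 and 876 CPM and 304, 296 and 309 CPM. The treatments were apart in both genotypes in the same order as for the 11 genes with opposite responses, and the KO CB-103 libraries were the highest. Of the 7 cytosolic or dual genes with TGATGNAA, 0 were higher and 4 lower in KO than in NT cells with CB-103. Over all genes the shares were 20.4% and 16.5%. The part of ATF4 in the synthetase responses was not tested. Of 8 ATF4-related genes 7 rose with CB-103 (beside 29.5% of all genes) and 6 fell with GSI (beside 15%) in NT cells. The largest log2 rises with CB-103 were those of DDIT3 (4.83 ± 0.080), the stress factor CHOP, ATF5 (3.41 ± 0.067), the feedback pseudokinase TRIB3 (3.28 ± 0.087) and CEBPG (1.78 ± 0.050).

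Of 13 amino acid synthesis genes 6 rose and 1 fell with CB-103 in NT cells (beside 29.5% and 28.7% of all genes). In KO cells 11 rose with CB-103 (beside 24.9%), and 11 fell with GSI in NT cells (beside 15%). PYCR1, for proline synthesis, changed by 1.11 ± 0.11 with CB-103 and -1.10 ± 0.11 with GSI, GOT1 by 1.23 ± 0.13 and -0.47 ± 0.13, and the serine synthesis gene PSAT1 by -0.028 ± 0.050 (adjusted p = 0.67) and -1.07 ± 0.051. Of 13 amino acid transporter genes 9 rose and 1 fell with CB-103 in NT cells (beside 29.5% and 28.7% of all genes). With GSI 8 fell in NT cells (beside 15%). The cystine transporter SLC7A11 changed by 4.26 ± 0.12 and -1.50 ± 0.14, and its partner SLC3A2 by 2.35 ± 0.087 and -0.60 ± 0.085. The glycine transporter SLC6A9 changed by 1.399 ± 0.12 and -2.30 ± 0.14. In the list of eIF2 kinases with GCN2 partners and phosphatase subunits, 2 of 8 tested genes rose and 3 fell with CB-103 in NT cells. These counts stood beside 29.5% and 28.7% of all genes, and nothing is read from them. The genes that rose were the phosphatase subunit PPP1R15A (3.54 ± 0.082) and the kinase EIF2AK3 (1.76 ± 0.068).

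The machinery that makes and matures tRNA did not move as one with CB-103. Of 20 RNA polymerase III genes 5 rose and 8 fell in NT cells (beside 29.5% and 28.7% of all genes). In KO cells 6 rose and 10 fell (beside 24.9% and 23.7%). The same shares stand beside the other CB-103 counts given here, and nothing is read from counts near them. POLR3C changed by 1.55 ± 0.050 and BRF2 by 1.65 ± 0.083 on the log2 scale in NT cells. Of 19 genes of tRNA maturation and export 7 rose and 8 fell in each genotype, among them XPOT, the export receptor for tRNA (0.94 ± 0.045 in NT cells), and the La protein gene SSB (-0.76 ± 0.054 in NT cells). With GSI, 12 of the 20 and 14 of the 19 fell in NT cells (beside 15% of all genes), with median log2 fold changes of -0.26 and -0.37. POLR3G (-0.81 ± 0.078) and WDR4 (-0.68 ± 0.072) were among the largest falls. Of 10 mitochondrial translation factors 3 rose and 4 fell with CB-103 in NT cells (1 and 4 in KO cells), including MTFMT, the formyltransferase that acts on the product of MARS2 (-0.73 ± 0.069). Of 4 tested eEF1 genes, EEF1A1 (-0.23 ± 0.064) and EEF1D (-0.23 ± 0.067) fell with CB-103 in NT cells. In KO cells neither passed (0.072 and 0.10), and the other 2, EEF1B2 (0.21 ± 0.057) and EEF1G (0.35 ± 0.061), rose. Of 5 genes that edit or recycle charged tRNA, AARSD1 (0.78 ± 0.061) and PTRH2 (0.73 ± 0.062) rose and DTD1 (-0.65 ± 0.26) and DTD2 (-0.53 ± 0.079) fell with CB-103 in NT cells. In KO cells AARSD1 (0.54 ± 0.062) and PTRH2 (0.54 ± 0.062) rose, whereas DTD1 (-0.034) and DTD2 (-0.090) did not pass.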

How the data were processed

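Per the labels' protocols, polyadenylated RNA was made into stranded libraries and sequenced as paired reads. Salmon 1.4.0, HISAT2 2.2.1, FastQC 0.11.9, bcl2fastq 2.20 and hg38 are listed in the submitters' processing notes, without roles. The sources used here do not give how transcripts were summed to genes. The authors deposited gene tables of rounded estimated counts (the expected count unit), which were tested as whole counts, a table of variance-stabilised log2 values (used only for a check of scale) and transcript estimates with TPM. Gene positions and transcript names come from the GENCODE 29 annotation of hg38, and promoter windows from RefSeq for GRCh38.p14.

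All 18 libraries were fitted in edgeR 4.0.16 (R 4.3.3) with 1 mean per group, filterByExpr, TMM scaling and the quasi-likelihood F test (12 residual degrees of freedom). Values after ± are SE for log2 fold changes and SD over 3 libraries for levels. Each p-value was adjusted over the 17346 genes tested in that comparison. The scripts were tested on simulated data. Alternatives were DESeq2 1.42.0, its size factors in edgeR, no filter, the replicate number as a block, a fit on the compared groups alone, gene sums of the deposited transcript estimates, replicates 2 and 3 only, and leaving out each library.

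The members, lists and tests were chosen with earlier results of these data known, so the patterns are descriptions and not independent support. Per-library values are given for the 4 largest rises and falls among called members in each comparison with DMSO, the 4 largest called interactions of each inhibitor, the 3 largest called differences between genotypes in DMSO, and KARS1, GARS1, EPRS1, QARS1 and EARS2. From each list, up to 4 called genes with CB-103 and up to 2 with GSI in NT cells could be named, beside ATF4, MYC and PIK3R1. A few genes that this rule or the figures would name are not reported here, though counts, medians and sums include them.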

Additional observations from a re-analysis of the deposited data

Results flagged for a closer look

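A difference between genotypes in the response to an inhibitor, by the interaction term, marked the 12 results given here. For CB-103 the KO minus NT differences on the log2 scale were -0.42 (WARS1), 0.41 (WARS2), 0.36 (RARS2), 0.35 (IARS2), 0.35 (QARS1), 0.29 (HARS1) and 0.19 (VARS2). WARS1 and WARS2, for the same amino acid in the cytosol and the mitochondrion, differed in opposite directions, with WARS1 rising less in KO cells and WARS2 lower with CB-103 in NT cells at a KO value of -0.018 that did not pass (adjusted p = 0.86). For GSI the differences were 0.60 (MARS2), 0.37 (KARS1), 0.30 (NARS2), 0.28 (CARS1) and 0.27 (SARS1), none of which was called under every alternative.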

How the results depend on the processing

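Counts of called members in the 4 comparisons with DMSO, the 2 comparisons of inhibitors and KO against NT with GSI stayed within 1.5 times their value under every alternative. Leaving out 1 library gave 29 to 30, 22 to 24, 25 to 28 and 18 to 22 called members (CB-103 in NT and KO, GSI in NT and KO). Of the called members, 27 of 30, 21 of 26, 24 of 27 and 17 of 22 were called in every alternative without the block. KO against NT in DMSO (4 members) gave 7 with DESeq2, 1 with no filter and 1 to 3 without 1 library, and KO against NT with CB-103 (15) gave 9 with no filter. The CB-103 interaction (7) gave 4 to 7 without 1 library. The GSI interaction called 6 members, beside 484 of all genes. It gave 10 with DESeq2 (beside 1227), 1 with no filter (beside 657) and 10 with gene sums (beside 997). With replicates 2 and 3 only it gave 0 (beside 42), and without 1 library 0 to 10 (beside 53 to 1505). With gene sums, EARS2 in KO against NT with GSI (0.22, adjusted p = 0.0080) and SARS2 in KO against NT with CB-103 (0.26, adjusted p = 0.0018) changed sign and passed; the cause was not tested.

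With the replicate number as a block, KO against NT in DMSO gave 10 members (27.0%, beside 25.4% of all genes). The fit without the block gave 10.8% and 21.4%. With the block the GSI interaction gave 11 members (beside 1291 of 17346 genes), and no call was lost. The labels give numbers but no shared origin, and same-numbered libraries did not all deviate together: 31 of 45 correlations were above 0.1 (range -0.071 to 0.35), and 15 of 18 libraries correlated best with their own number, a hint from the data and not the design. Depth limits MARS2 most, at 256 counts per library.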
